A study of Mus musculus with 6 samples.

Results

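The MYC network genes are the mouse genes Myc, Mycn, Mycl (Mycl1 in older naming), Max, Mxd1, Mxd3, Mxd4, Mxi1 and Mnt. They were found on the arrays as every probe, other than control probes, whose accession belongs to one of these genes in the RefSeq table used. That table held the accessions of 48.9% of all probes, so a probe of these genes listed under another accession would not be included. This gave 11 probes for the 9 genes, out of 55681 probes on the array and 20660 genes with a matched probe. Mxd1 and Mxd4 each had 2 probes and the other genes had 1.

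RNA was compared between 2 populations of mammary cells from female C57Bl6J mice, with 3 biological replicates of each and 1 one-color Agilent array per replicate. The fetal cells came from embryonic day 18.5 (E18.5) glands and were sorted as CD31-CD45-Ter119-EpCAM++CD49f+, which removes endothelial and blood cells and keeps cells with high EpCAM. The adult basal cells came from glands of 8 to 12 wk old mice and carried the sort phenotype CD31-CD45-Ter119-, BP-1-, EpCAM+CD49f+. No allele or treatment distinguishes the groups in the labels. Both are bulk populations, so a gene carried by fewer cells and a gene with less RNA per cell cannot be told apart. The groups also differed in the sort (BP-1 was used for the adult cells alone) and in the length of the enzyme digestion (overnight for adult glands, far shorter for fetal glands), and these cannot be told apart from age. How many animals were pooled for a replicate is not given in the sources used here.

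MYC proteins are transcription factors that bind DNA only as partners of MAX, at the E-box sequence CACGTG, and recruit coactivators that raise transcription of genes for growth and division. The MXD proteins (MXD1, MXI1, MXD3 and MXD4) and MNT also pair with MAX at the same sequence, but they recruit the SIN3 and histone deacetylase corepressors. MYC is associated with proliferating progenitors, MXD1 and MXD4 with cells leaving the cycle, MXD3 with cells in S phase, and MNT is present in both kinds of cell. MLX and MGA form a related arm of the network that MXD1, MXD4 and MNT (through MLX) or MAX (through MGA) join.

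Promoter windows of RefSeq (GRCm38.p6, 250 bases before to 50 after each start) were held for 8 of the 9 genes, all but Myc. Statements on the members' windows below therefore do not cover Myc. They are shown because the E-box is the sequence the network's own proteins bind, and E2F sites are common in genes of cycling cells. The canonical E-box CACGTG, which reads the same on both strands, was present in 7.15% of all 32851 windows and in those of 3 members, Mnt, Max and Mxd4. The following stretches are written 5′ to 3′ along the gene with the E-box in capitals and 20 bases on each side. They are chr11:74830781-74830826 (plus strand, Mnt, E-box starting 123 bases before the start), chr12:76962226-76962271 (minus strand, Max, 3 bases before) and chr5:34187904-34187949 (minus strand, Mxd4, 219 bases before).
Mnt: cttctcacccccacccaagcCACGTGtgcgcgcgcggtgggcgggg
Max: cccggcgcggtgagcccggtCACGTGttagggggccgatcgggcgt
Mxd4: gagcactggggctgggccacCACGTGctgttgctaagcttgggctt

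The related letters CACGCG were searched on both strands too, and were present in 9.27% of all windows and, among the members, in that of Mycl. For E2F the letters TTTGGCGC, TTTCCCGC and TTCCCGCC were searched on both strands, the last 2 of which can overlap by 7 letters. They were in 0.514%, 1.07% and 2.19% of all windows. Among the members, TTTGGCGC was present only in the Mycn window, where it occurred 2 times (183 and 168 bases before the start), and TTCCCGCC only in the Mxd3 window, on the opposite strand as GGCGGGAA (137 bases before the start). TTTCCCGC was in none. Mxd1 and the 3 windows of Mxi1 held none of the letters searched. A match is a description of the letters and not a bound site. The stretches are chr12:12941977-12942039 (minus strand, Mycn) and chr13:55329841-55329888 (minus strand, Mxd3), with the E2F letters in capitals.
Mycn: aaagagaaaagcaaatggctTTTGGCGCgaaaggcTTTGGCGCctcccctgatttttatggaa
Mxd3: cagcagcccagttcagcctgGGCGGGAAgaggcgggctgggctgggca

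Among the MYC proteins, the Myc probe (A_52_P108346) had a lower signal in all 3 fetal samples than in any adult basal sample. Levels are given as quantile-normalized log2 signal, on which a difference of 1 is 2-fold. Myc was at 11.53, 11.39 and 11.33 in fetal replicates 1, 2 and 3 and at 12.64, 12.95 and 12.68 in adult basal replicates 1, 2 and 3. The spread within each group (SD 0.10 fetal and 0.17 adult basal, n = 3 each) was small beside the gap between the groups. The fetal minus adult basal difference was -1.34 (SE 0.12, 95% interval -1.63 to -1.05), which is a 2.53-fold lower fetal signal. A probe counted as called, under the limits of the study's methods, if its difference was 2-fold or more and its p after Holm adjustment did not exceed 0.05. Myc did not reach this limit (limma, Holm-adjusted p = 0.18), while its p adjusted by Benjamini-Hochberg was 6.6e-05. The Holm-adjusted p of limma was 0.049 with a normexp background correction and 0.021 with a trended, robust variance, so its call rests on these choices.

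Mycn, the paralog known from embryonic progenitors, stood the other way round. The probe (A_52_P536494) was at 7.26, 7.36 and 7.75 in the fetal samples and at 6.70, 6.75 and 6.83 in the adult basal samples, in replicate order. The groups did not overlap, and fetal replicate 3 was the highest. The difference was 0.69 (SE 0.15, 95% interval 0.35 to 1.04, 1.62-fold), below the 2-fold limit (limma, Holm-adjusted p = 1, Benjamini-Hochberg-adjusted p = 0.0045). With a normexp background correction it was 0.46.

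Mycl (A_55_P1972025), the paralog with the narrowest known range of tissues, overlapped between the groups. It was at 6.88, 7.01 and 7.57 in the fetal samples and at 7.68, 7.29 and 7.43 in the adult basal samples. Fetal replicate 3 lay above adult basal replicates 2 and 3. The difference of -0.31 (SE 0.20) had a 95% interval from -0.78 to 0.16 and a limma p of 0.22 after Benjamini-Hochberg adjustment, and it ranged from -0.52 (without fetal replicate 3) to -0.17 (without fetal replicate 1) when 1 array was left out. It was -0.20 without adult basal replicate 1 and -0.13 with normexp.

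Max, the shared partner of all MYC, MXD and MNT proteins, was lower in every fetal sample than in any adult basal sample, but by less than 2-fold. Its probe (A_55_P1962801) was at 12.79, 12.88 and 13.08 in the fetal samples and at 13.60, 13.59 and 13.82 in the adult basal samples. The gap between the nearest samples of the groups exceeded the SD within either (0.15 and 0.13). The difference was -0.75 (SE 0.12, 95% interval -1.04 to -0.47, 1.69-fold), with a limma Holm-adjusted p of 1 and a Benjamini-Hochberg-adjusted p of 0.0012.

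Mxd3, the MXD repressor whose RNA is known to peak in S phase, was the only member called, and it was higher in fetal cells. The probe (A_52_P190647) was at 8.42, 8.70 and 8.97 in the fetal samples and at 4.65, 5.11 and 4.58 in the adult basal samples. Before normalization between arrays, the processed signals were 388, 483 and 541 in the fetal samples against 24.6, 29.2 and 21.4 in the adult basal samples, each well above background by the scanner's own flag. All fetal samples lay far above all adult basal samples, and the highest adult basal sample was replicate 2. The difference was 3.91 (SE 0.19, 95% interval 3.46 to 4.37), or 15.1-fold (limma, Holm-adjusted p = 0.0026). The low adult signals make the size depend on how background is treated, and it was 2.43 with normexp and 3.30 when an offset of 16 was added first. Without fetal replicate 2 the difference was again 3.91, with a Holm-adjusted p of limma of 0.0501, just outside the limit.

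The other MXD genes showed no difference that passed the test. Mxd1, a repressor induced in many cells as they differentiate, was measured by 2 probes, for both of which the groups overlapped. The first (A_55_P2025248) was at 11.32, 11.19 and 11.12 in the fetal and 10.98, 11.37 and 10.98 in the adult basal samples, a difference of 0.10 (SE 0.14, 95% interval -0.23 to 0.43). The second (A_51_P490795) was at 10.07, 9.87 and 9.73 in the fetal and 9.54, 9.85 and 10.58 in the adult basal samples. Its highest value was that of adult basal replicate 3, and the difference of -0.10 (SE 0.26, 95% interval -0.70 to 0.51) became 0.20 without that replicate. Neither interval reaches a 2-fold difference.

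The 2 probes of Mxd4, a repressor of the same group, pointed in opposite directions. A_55_P2117928 was at 10.62, 10.82 and 10.74 in the fetal samples and at 10.66, 10.40 and 10.43 in the adult basal samples, with adult basal replicate 1 inside the fetal range. Its difference was 0.23 (SE 0.12, 95% interval -0.05 to 0.50). A_55_P2172121 was at 7.72, 7.45 and 7.64 in the fetal samples and at 8.38, 7.69 and 8.47 in the adult basal samples, with adult basal replicate 2 beside the fetal values. Its difference was -0.58 (SE 0.21, 95% interval -1.08 to -0.08), with a Benjamini-Hochberg-adjusted p of limma of 0.048. The mean of both probes gave -0.18, so no direction can be given for Mxd4.

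Mxi1 (A_55_P1987096), which encodes the repressor also called MXD2, was the only member below the low-signal limit of 5.95 in both populations, and it was not tested. It was at 5.59, 5.65 and 5.76 in the fetal samples and at 5.39, 5.67 and 5.42 in the adult basal samples. Every array marked it as well above background, and adult basal replicate 2 lay within the fetal range.

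Mnt, the repressor found alongside MYC in most cells, was lower in all 3 fetal samples, as Myc was. Its probe (A_52_P477431) was at 13.02, 12.89 and 12.77 in the fetal samples and at 13.90, 14.27 and 14.32 in the adult basal samples. The groups were clear of each other, with SDs of 0.12 and 0.23. The difference was -1.27 (SE 0.14, 95% interval -1.61 to -0.93, 2.41-fold), with a limma Holm-adjusted p of 0.67 and a Benjamini-Hochberg-adjusted p of 1.9e-04.

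**Figure D1:**
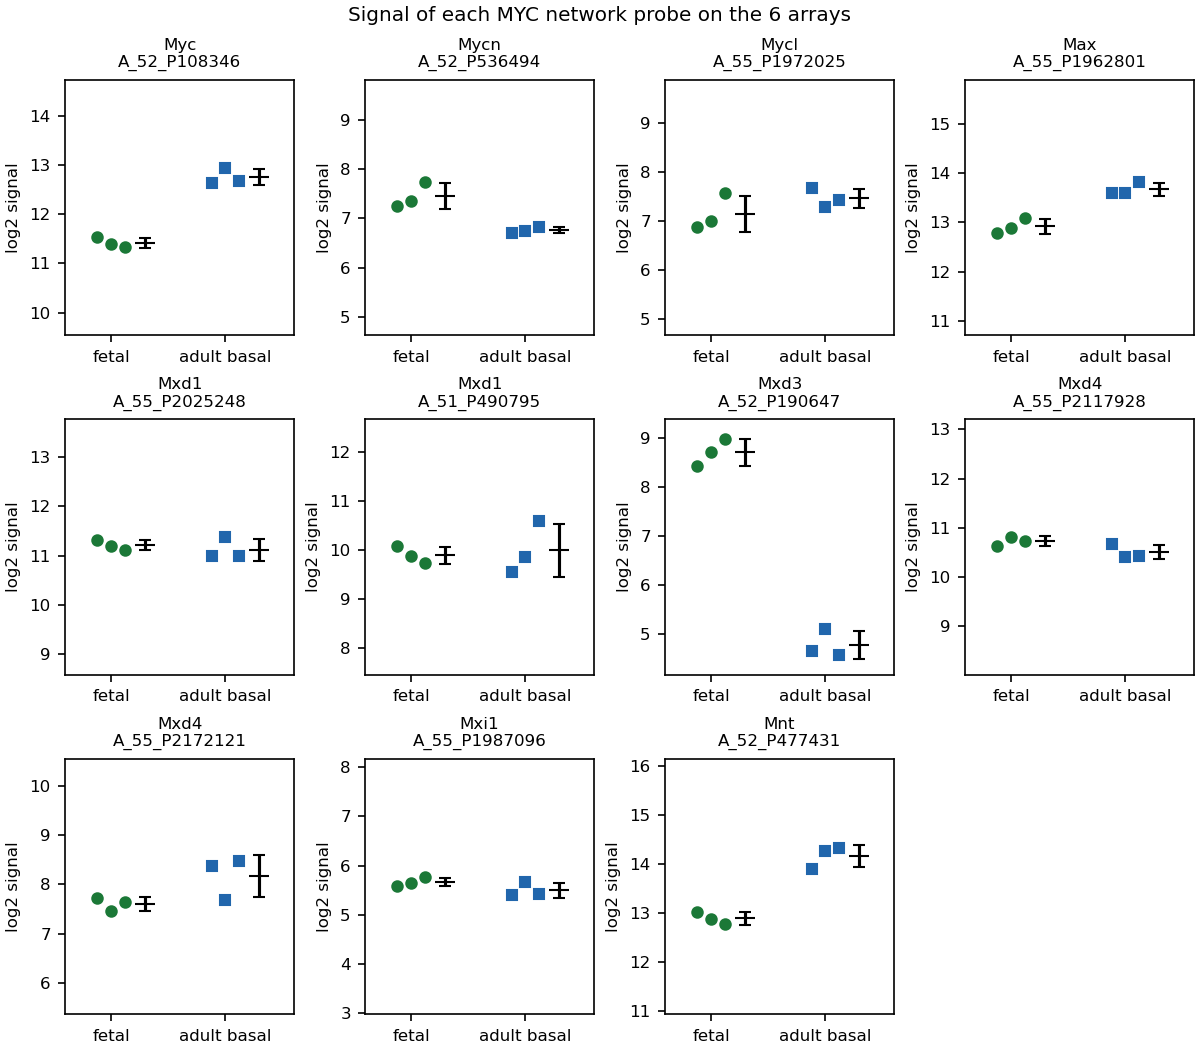
Quantile-normalized log2 signal (vertical axis, each panel spanning the same number of log2 units) of the 11 MYC network probes on the 3 fetal arrays (green circles) and 3 adult basal arrays (blue squares), in replicate order; black marks are the group mean and SD. Mxd3 is the panel with the widest gap (8.42 to 8.97 against 4.58 to 5.11), Myc, Max and Mnt lie lower and Mycn higher in the fetal samples, and the 2 Mxd1 probes overlap.

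Over the network as a whole, 10 of the 11 probes, of 8 genes, passed the low-signal filter. By Holm adjustment 1 of the 10 was called, against 11.1% of the 20448 probes tested in the same fit. Of all probes tested, 5.92% were called with more signal in fetal and 5.18% with more in adult basal cells. By Benjamini-Hochberg adjustment 3 were called (Mxd3 higher, Myc and Mnt lower in fetal cells), against 30.0% of all probes tested. The groups did not overlap for 5 of the 10 probes, against 69.0% of all probes tested. These were 2 higher in fetal cells (Mycn and Mxd3), against 34.1% of all probes, and 3 higher in adult basal cells (Myc, Max and Mnt), against 35.0%. By either adjustment the share of network probes called was close to that of all probes tested. The median difference of its tested probes was -0.21 and the median absolute difference 0.64, beside -0.03 and 0.55 over all probes tested.

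**Figure D2:**
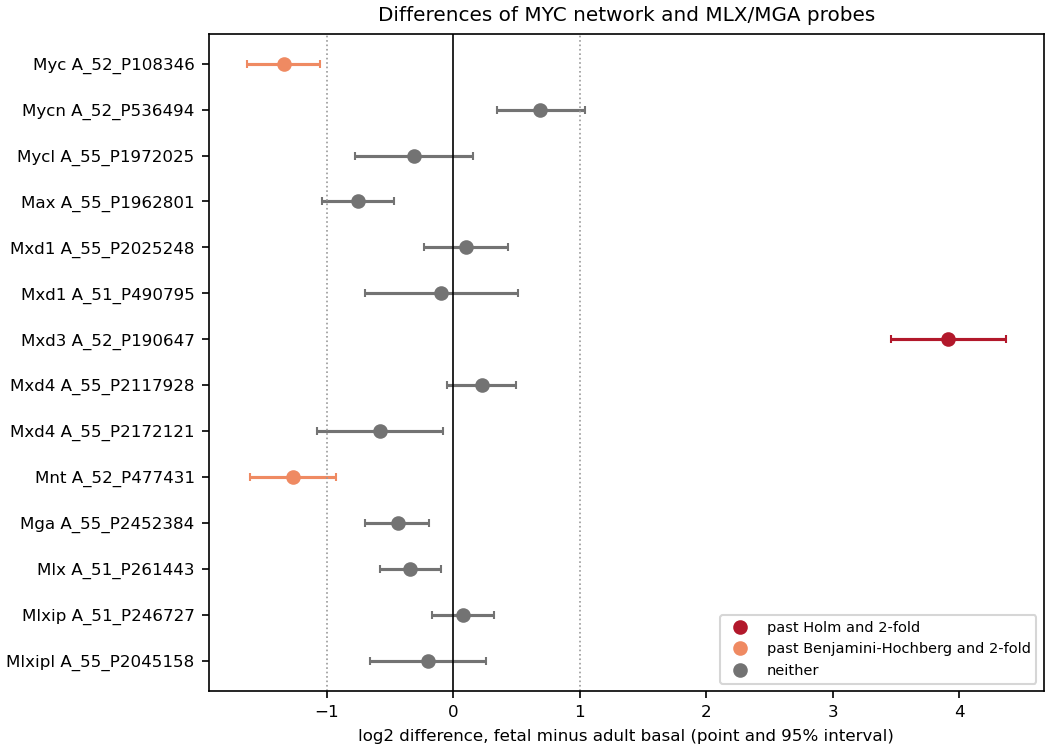
Log2 difference between fetal and adult basal cells (horizontal axis; points, with 95% intervals of the limma fit) for each tested MYC network probe and the main probes of the MLX and MGA arm; dotted lines mark 2-fold. Mxd3 lies at 3.91, Myc at -1.34 and Mnt at -1.27, and the other probes are within 2-fold.

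The 6 arrays were on 2 slides, and each slide held both populations. Slide 1 held fetal replicate 1 with adult basal replicates 1 and 3, and slide 2 held fetal replicates 2 and 3 with adult basal replicate 2. The difference within slide 1 and within slide 2 was -1.13 and -1.59 for Myc, 0.49 and 0.81 for Mycn, -0.92 and -0.61 for Max, 3.80 and 3.73 for Mxd3, and -1.09 and -1.44 for Mnt. Since the groups of these 5 genes did not overlap, their direction could not differ between the slides. The Mxd4 probes A_55_P2117928 (0.07 and 0.38) and A_55_P2172121 (-0.71 and -0.14) and Mxi1 (0.18 and 0.04) also had the same direction on both slides. Mycl (-0.68 and 0.01) and the Mxd1 probes A_55_P2025248 (0.34 and -0.22) and A_51_P490795 (0.02 and -0.05) did not, and none of these had a call.

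**Figure D3:**
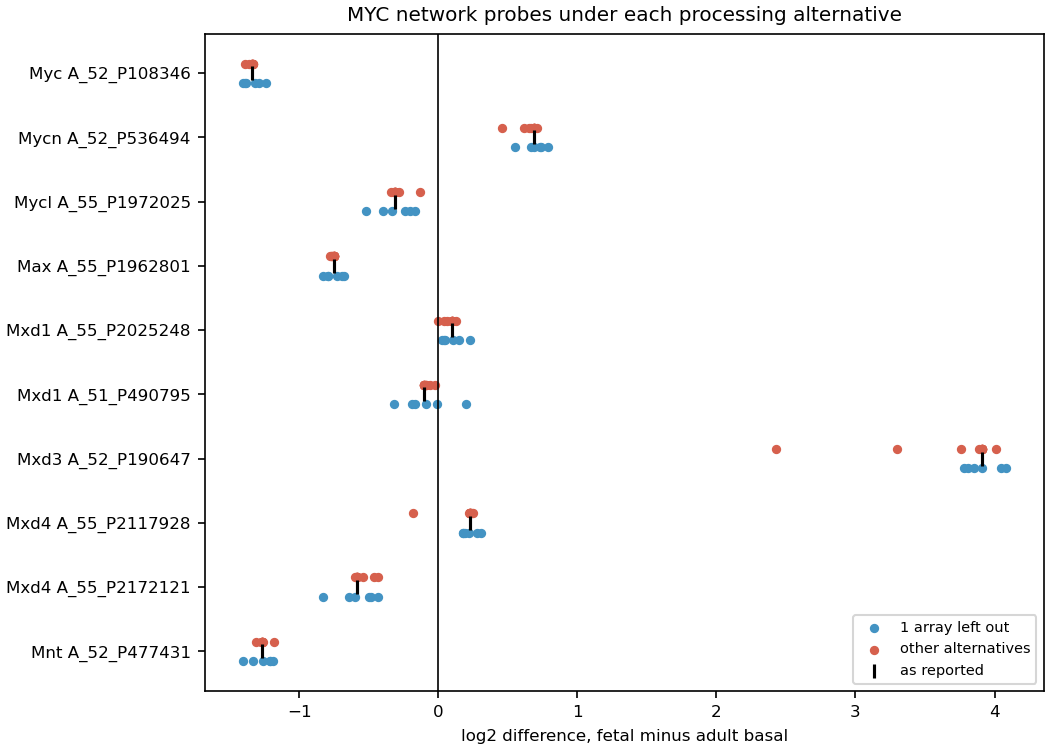
Log2 difference (horizontal axis) of each tested MYC network probe as reported (black bar), under each of the other processing alternatives (red) and with 1 array left out (blue). Myc and Mnt stay between -1.40 and -1.18, Mxd3 spreads from 2.43 to 4.08, and an Mxd1 probe crosses 0; the red point below 0 beside the Mxd4 probe A_55_P2117928 is the mean of both Mxd4 probes (-0.18).

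The genes whose pattern over the 6 arrays was closest to Myc, Mycn and Mxd3 were found among 15716 genes, by the root mean square difference of log2 signals after each probe's own mean was subtracted. This likeness mostly follows the size of the difference between the groups. For Myc they were Atxn2l (0.03), Krt81 (0.05) and Htr1d (0.05), with fetal minus adult basal differences of -1.30, -1.40 and -1.25. For Mycn they were Trmt11, L3mbtl2 and Hes6, each at 0.07. For Mxd3 they were E2f8 (0.12), which encodes a repressor of the E2F family, H3c7 (0.14), a replication-dependent histone gene, and Asic1 (0.14), an ion channel gene, with differences of 3.97, 3.75 and 3.89.

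None of the 4 genes of the MLX and MGA arm was called on its brightest probe, by either adjustment. MGA pairs with MAX, and its gene was at 9.21, 9.06 and 9.13 in the fetal and 9.53, 9.48 and 9.71 in the adult basal samples, a difference of -0.44 (SE 0.11). Mlx, whose product is the MAX-like partner of the glucose sensors MLXIP and MLXIPL, was at 9.13, 9.12 and 9.29 against 9.54, 9.46 and 9.56, a difference of -0.34 (SE 0.10). Like Max, both were lower in every fetal sample. Mlxip differed by 0.08 (SE 0.11). For Mlxipl, encoding ChREBP, the brightest probe gave -0.20 (SE 0.20) and the other 1.00 (SE 0.20, limma, Benjamini-Hochberg-adjusted p = 0.0031, Holm-adjusted p = 1), so its direction depends on the probe. Txnip, the best known target of MLX with its partners, was at 10.98, 11.59 and 11.58 in the fetal and 13.92, 12.74 and 14.56 in the adult basal samples. Its difference of -2.36 (SE 0.43) passed only by Benjamini-Hochberg (limma, adjusted p = 0.0024, Holm-adjusted p = 1). Arrdc4, a second such target, differed by 0.42 (SE 0.15) on its brighter probe and -0.10 on the other.

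Other genes of the pathway were described as lists with 1 probe per gene, for which 6.02% of the 15725 genes tested were called higher in fetal and 5.20% higher in adult basal cells, with a median difference of -0.04. By Benjamini-Hochberg adjustment these shares were 15.8% and 13.9%. None of the 13 coactivators of MYC was called (median 0.15). The highest was Actl6a, a subunit of chromatin complexes that bind MYC, at 1.29 (limma, Benjamini-Hochberg-adjusted p = 1.1e-04, Holm-adjusted p = 0.33), and Hcfc1, encoding a MYC-binding host cell factor, was at 0.89, with a second probe at 0.28 whose groups overlapped. Of the corepressor genes that serve MXD proteins, MNT and MIZ1, 6 of 7 passed the filter and 1 was called. This was Hdac1, a histone deacetylase of the SIN3 complex, at 14.92, 15.02 and 15.01 in the fetal and 13.23, 12.84 and 12.88 in the adult basal samples. Its difference was 2.01 (SE 0.13, limma, Holm-adjusted p = 0.017), and its other 2 probes gave 1.69 and 1.95. The Hdac1 call was lost without any one of the fetal replicates or adult basal replicates 2 and 3. Sin3a, the scaffold that MXD proteins bind, was at -0.86 (SE 0.12), below 2-fold.

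Of 20 genes measured whose products set the stability or amount of MYC, 4 were called higher in fetal and 1 higher in adult basal cells (median 0.11). Igf2bp1, which encodes a protein that binds and protects Myc mRNA, was at 9.85, 9.47 and 9.76 in the fetal samples and reached no level clear of background in the adult basal samples, and was at least 60.4-fold higher in fetal cells. Cip2a, an inhibitor of the phosphatase that destabilizes MYC, was likewise at least 8.09-fold higher. These bounds set the fetal mean against the lowest signal that counted as above background on each adult array, and they hold for the processed signal alone. With normexp the fitted differences were 3.77 for Igf2bp1 and 1.44 for Cip2a, below the bounds. The mitotic kinases Aurka (5.46, SE 0.21) and Plk1 (4.71, SE 0.22), which stabilize MYC proteins, were higher too, and both are also genes of dividing cells. Fbxo32, a ubiquitin ligase subunit reported to act on MYC, was lower in fetal cells by 3.45 (a difference of -3.45, SE 0.15). Skp2 had no matched probe.

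Textbook targets of MYC did not move together. None of the 32 nucleolar and ribosome-assembly targets was called by Holm adjustment, while 5 were called higher in fetal cells by Benjamini-Hochberg adjustment (median 0.32). The groups did not overlap for 17 higher in fetal and 4 higher in adult basal cells, against 34.1% and 35.0% of all probes tested. The gene with the smallest p that was higher in fetal cells was Pes1, a ribosome assembly factor, at 1.67 (SE 0.17), although its second probe gave 0.06. Ppan, another assembly factor, was at -0.98 (SE 0.11).

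Of 29 metabolic targets, 3 were called higher in fetal and 5 higher in adult basal cells (median -0.44). The 3 were nucleotide genes, Pfas of purine synthesis (2.39, SE 0.15), Umps of pyrimidine synthesis (2.25, SE 0.14, with an uncalled second probe at 2.45) and Dctpp1, a dCTP pyrophosphatase gene (2.19, SE 0.13). Higher in adult basal cells were the glucose transporter gene Slc2a1 (-3.35, SE 0.14), Mthfd2 of mitochondrial folate metabolism (-3.31, SE 0.12), and the amino acid transporter genes Slc3a2 (-3.24, SE 0.12) and Slc1a5 (-2.79, SE 0.11). The fifth, Ctps of CTP synthesis (-1.45, SE 0.09), is named after its value was seen. The 3 fetal calls became 0 when any one fetal replicate or adult basal replicate 3 was left out, and 1 without adult basal replicate 1 or 2.

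Cell cycle targets lay mostly on the fetal side. Of 19 tested, 10 were called higher in the fetal samples and 0 the other way (median 2.35), and by Benjamini-Hochberg adjustment 15 and 0. Ccnd1, encoding cyclin D1, was at 14.81, 14.82 and 14.82 in the fetal samples and at 8.57, 7.78 and 8.35 in the adult basal samples, a difference of 6.59 (SE 0.20). Ccnb1 (5.82, SE 0.22) and Ccna2 (5.34, SE 0.22), encoding mitotic and S phase cyclins, and Mcm5 (5.73, SE 0.15), encoding a subunit of the replicative helicase, followed. This list shares its subject with 12 proliferation markers, of which 11 were called higher in fetal cells (median 5.57), among them Bub1 (6.92, well above background on 2 of 3 adult basal arrays), Cdk1 (6.77, with other probes at 6.17 and 0.96), Birc5 (73.4-fold) and Mki67 (5.98). Among the proliferation markers 4 to 6 were called when fetal replicate 1, 2 or 3 or adult basal replicate 3 was left out. Over 19 alternatives the lowest difference was 4.66 for Bub1, 4.63 for Cdk1 and 5.37 for Birc5 (6.20 as reported). With 1 array left out, Bub1 ranged from 6.27 to 7.43. The call was lost under 11 alternatives for Bub1, 10 for Mki67, 6 for Cdk1 and 0 for Birc5. The signals of Mxd3 and of these markers moved with the same groups, and the part of cell division in any difference of the MYC network was not tested.

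Genes that MYC is known to repress were split. Of 10, 2 were called higher in fetal cells, the cyclin-dependent kinase inhibitor genes Cdkn1c (64.1-fold) and Cdkn2b (3.40, SE 0.14). Higher in adult basal cells were 4, the stress-response gene Ndrg1 (-3.29, SE 0.14), the kinase inhibitor gene Cdkn1a (-2.13, SE 0.14), the growth-arrest gene Gas1 (-2.07, SE 0.13) and the DNA damage gene Gadd45a (-1.58, SE 0.11). The list median was -1.42. Other probes gave differences of smaller size for Cdkn2b (2.11, limma, Holm-adjusted p = 0.057) and Cdkn1a (-0.49, below the low-signal limit and not tested), and for Gas1 they gave -0.80 and -2.16, neither of which passed the Holm threshold. The 4 adult calls became 2 without adult basal replicate 2 and 1 without any one of the other 5 arrays.

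**Figure D4:**
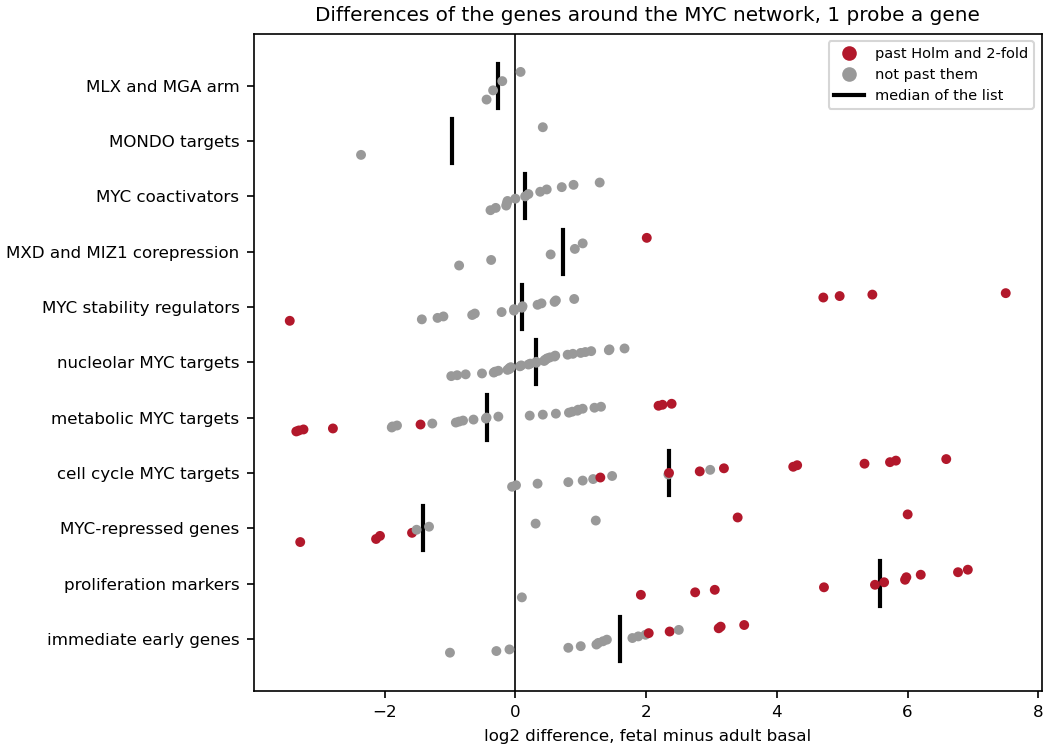
Log2 difference between fetal and adult basal cells (horizontal axis) of every tested gene in the lists around the MYC network, 1 probe per gene; red points passed Holm adjustment and 2-fold, and black bars are list medians. Cell cycle targets (median 2.35) and proliferation markers (median 5.57) lie to the right. Nucleolar targets (median 0.32) range from -0.98 to 1.67, and metabolic targets (median -0.44) spread to both sides, from -3.35 to 2.39.

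Myc is itself an immediate early gene, and such genes can respond to the isolation of cells, which differed between the groups. Of 18 other immediate early genes, 5 were called higher in fetal and 0 higher in adult basal cells (median 1.59). They were Nr4a1 (3.50, SE 0.24), Klf2 (3.14, SE 0.12), Klf6 (3.11, SE 0.11), Fosb (2.36, SE 0.12) and, named after its value was seen, Ccn1 (2.04, SE 0.11). The count was 2 without fetal replicate 1 or 2 and 3 without fetal replicate 3. These calls and the list median lay on the opposite side from Myc, but not every gene of the list did. The groups did not overlap for 15 genes higher in fetal cells and for 1, Ier3, higher in adult basal cells, as Myc was. For Egr2 and Dusp1 the groups overlapped. The part of a response to cell isolation in the Myc difference was not tested.

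The labels were checked against marker genes. Of 8 basal mammary markers, 6 were called higher in adult basal and 0 in fetal cells (median -4.02), and the brightest, the smooth muscle actin gene Acta2, was at -4.07. Krt14 (-1.20) and Trp63 (-0.08) were not called, and their groups overlapped. The summed signal of the list, in log2, was 16, 15.82 and 15.67 in the fetal and 19.65, 19.54 and 19.52 in the adult basal samples. Of 8 luminal markers tested, 3 were called higher in fetal cells, and the brightest, Krt18, was at 0.58. Krt19 (-1.22) was higher in adult basal cells by Benjamini-Hochberg adjustment, and Prlr (-0.35) did not overlap between the groups. The luminal sum was 17.43, 17.44 and 17.09 in the fetal and 16.85, 16.74 and 16.76 in the adult basal samples, and it follows Krt18.

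Other cell types were checked in the same way. Of 7 leukocyte markers none was called, while 2 were higher in adult basal cells by Benjamini-Hochberg adjustment, and the summed list was at 15.07, 14.81 and 14.67 in the fetal and 14.58, 15.04 and 14.75 in the adult basal samples, with Itgam brightest. Of 4 endothelial markers tested none was called, and again 2 were higher in adult basal cells by Benjamini-Hochberg adjustment (13.59, 13.40 and 13.62 against 13.65, 13.76 and 13.48, Kdr brightest). Of 7 fibroblast markers 2 were called higher in adult basal cells, Pdgfrb (-4.34) and Dcn (-3.78). Their list summed to 12.42, 12.48 and 12.79 in the fetal against 13.97, 14.18 and 14.70 in the adult basal samples. Adult basal replicate 3 was the highest. Col1a2 was brightest over all 6 arrays, but Dcn was brighter in every adult basal sample (13.04, 13.39 and 13.72 against 12.05, 12.03 and 12.89). Of 4 epidermal markers tested 1 was called on each side (median 1.17, summed 11.58, 11.37 and 11.37 against 13.43, 13.90 and 14.12). In the adult basal samples that sum follows Krt15 (-3.85), the brightest gene there, while Krt10 was brighter than Krt15 in the fetal samples. The other 3 tested, Krt1 (1.95), Krt10 (1.47) and Lor (0.87), had values on the fetal side. No list had a marker at 0, since arrays give every probe a signal, and Cd68 of the leukocyte and Flg of the epidermal list had no matched probe. The leukocyte and endothelial sums follow their brightest genes. The markers called by Benjamini-Hochberg adjustment, Cd52 (-4.39) and Lyz2 (-1.76) of leukocytes and Cdh5 (-2.70) and Vwf (-1.56) of endothelium, were higher in every adult basal sample. These 4 genes, the fibroblast sum and Krt15 moved with the same groups as Myc, Max and Mnt, and their part in those differences was not tested. Without adult basal replicate 3 the difference was -1.38 for Myc, -0.68 for Max and -1.19 for Mnt.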

How the data were processed

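RNA of 3 fetal and 3 adult basal samples was measured on Agilent SurePrint G3 Mouse GE arrays. The labels and the methods name different labelling kits. The authors deposited spot intensity from Feature Extraction 11.0.1.1, background-subtracted, linear and not normalized between arrays. They also deposited a table of log2 values, quantile normalized in GeneSpring, whose columns had medians of 7.11 and followed their own array's scanner values (correlation of deviations from probe means 0.971 to 0.996); it served as an alternative.

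The processed signal was used here without control and outlier spots (104 to 326 per array), and log2 values of a probe's spots were averaged and quantile normalized over the 6 arrays. Accessions of 27235 probes (48.9%) matched a gene of the RefSeq table (GRCm38.p6); the scanner files hold no gene names, so members were matched by accession. Probes under 5.95, the boundary of the lowest of 3 k-means clusters (100 starts, seed 1), in both populations were left out. The remaining 20448 probes entered limma 3.58.1 (lmFit, then eBayes; R 4.3.3), and p-values were Holm-adjusted over all of them. The fit was tested on simulated data. An exact permutation test of 3 against 3 arrays cannot go below p = 0.10 and was not used. An array had 76.4% to 83.3% of its probes well above background; the number of arrays limits the precision. The labels call the samples biological replicates.

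For a list, the brightest probe of each gene was used. The text names every member probe, the MLX, MGA and Txnip genes, up to 4 called genes per list and direction with the largest difference, the 2 with the smallest p where fewer than 2 were called, and the brightest marker of each cell type. The members and lists were chosen with earlier results of these data known. Alternatives were the 75th percentile in place of quantiles, the deposited log2 values, normexp (offset 50), no filter, a filter on well-measured probes, the cutoff of the authors' script, all probes, Benjamini-Hochberg adjustment, trended robust eBayes, an offset of 16, each array left out, replicate number or slide as a block, and gene means over probes. Tables and plots were made in Python 3.11.15 with pandas 2.3.3, numpy 2.4.6 and matplotlib 3.10.9.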

Additional observations from a re-analysis of the deposited data

How the results depend on the processing

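Over 188 values of the MYC network probes under alternatives, 181 kept their direction and side of the limit. Mxd3 lost its call without fetal replicate 2, so the number of network probes called higher in fetal cells ranged from 0 to 1 with 1 array left out. The number called higher in adult basal cells was 0 as reported, 1 with normexp (Myc), 1 with trended robust eBayes (Myc) and 2 with Benjamini-Hochberg adjustment (Myc and Mnt). Direction turned for the Mxd1 probe A_51_P490795 (0.20 without adult basal replicate 3, and between -0.32 and 0.20 over the arrays left out), and with the mean of a gene's probes for Mxd4 (-0.18) and Mlxipl (0.40). The causes of these changes were not tested.

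Of all probes, 1210 were called higher in fetal and 1060 higher in adult basal cells. The counts were 619 and 563 without the low-signal filter, 3267 and 2866 with Benjamini-Hochberg adjustment, and 694 and 608 with a replicate block. They were 801 and 740 with slide as a block, and 1765 and 1591 with trended robust eBayes. With 1 array left out they ranged from 494 to 1060 and from 432 to 954.

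With Benjamini-Hochberg adjustment the list counts were 1 MLX target in adult basal cells, 1 coactivator and 2 corepressor genes in fetal cells, 4 stability regulators in adult basal cells, 5 nucleolar targets in fetal cells, 6 and 9 metabolic targets in fetal and adult basal cells, and 13 immediate early genes in fetal cells. With trended robust eBayes they were 4 stability regulators and 8 metabolic targets in adult basal cells and 9 immediate early genes in fetal cells, and this last count was also 9 with normexp and with an offset of 16. Without the filter they were 0 corepressor and 0 metabolic genes and 6 proliferation markers in fetal cells, and 1 repressed gene in adult basal cells. With a replicate block they were 0 corepressor genes, 1 metabolic target, 7 proliferation markers and 3 immediate early genes in fetal cells, and 1 repressed gene in adult basal cells. With slide as a block they were 0 corepressor genes and 1 metabolic target in fetal cells, and 2 repressed genes in adult basal cells. With 1 array left out, the numbers called higher in fetal cells ranged from 0 to 1 for corepressor genes, 0 to 1 for metabolic targets, 4 to 11 for proliferation markers and 2 to 6 for immediate early genes, and the number of repressed genes called higher in adult basal cells from 1 to 2.

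The replicate numbers did not pair the samples: deviations of same-numbered samples correlated at -0.032, 0.093 and 0.049 over probes. With the replicate block Mxd3 kept its call (limma, Holm-adjusted p = 0.016). Depth in the sense of read counts has no counterpart here. The low signal of Mxd3 in adult basal cells, and of Mxi1 in both populations, limits the size of their differences.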

Other observations

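Several genes around the network gave different values from different probes, which were looked at after their values had been seen. The widest gap was that of Cdk1, for which the brightest probe gave 6.77 and the others 6.17 and 0.96. Of the metabolic targets, Shmt1 gave 0.22 on its brightest probe and 3.25 on the other (limma, Holm-adjusted p = 0.12), and the amino acid transporter gene Slc7a5 gave -0.86 and -3.19 (limma, Holm-adjusted p = 0.01 for the latter). Birc5 gave 3.52 and 6.38 on its other probes, both on the same side as its brightest. Npm1, encoding the nucleolar protein nucleophosmin, had 5 probes. The brightest differed by 0.44 between fetal and adult basal cells, and 3 others by 0.47, 0.59 and 0.65. The fifth (A_55_P2117243) was at 14.10, 14.11 and 14.25 in the fetal and 11.83, 11.54 and 11.44 in the adult basal samples, a difference of 2.55 (SE 0.13, limma, Holm-adjusted p = 0.0031). Npm1 has many processed copies in the genome, and which transcripts each probe reports was not tested. Txnip was lower in fetal cells on both of its probes (-2.36 and -2.18), and all 3 probes of Usp36, a deubiquitinase gene that stabilizes MYC, gave values on 1 side (-1.43, -1.07 and -1.11).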
